A study of Gallus gallus with 2 samples.

Results

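Chromatin modifiers and remodellers are the proteins that write, remove and read chemical marks on histones and DNA, or that move nucleosomes along DNA. Their splicing was measured by RNA sequencing of chicken DT40 cells, an established B-lymphoblast line from the bursa of Fabricius. One library came from SRSF10-deficient cells (SRSF10-/-) and one from wild-type DT40 cells, both of poly(A) RNA. The sources do not say whether the deficient cells were a single clone. The genes were chosen by name, from a set of gene-name beginnings such as KDM, HDAC, ARID, SMARC and CHD, without PHF20 and PHF20L1. This gave 171 of the 10652 listed splicing events, in 77 genes.

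SRSF10 is a member of the serine/arginine-rich family, proteins that bind pre-mRNA and steer the spliceosome towards or away from nearby splice sites. Histone acetyltransferases and methyltransferases add marks to histone tails, while deacetylases and demethylases take them off. Proteins with bromodomains, PHD fingers or chromodomains bind those marks, and ATP-driven remodellers such as the BAF, NURF and CHD proteins slide or evict nucleosomes. Most of these proteins are large, work in complexes with many subunits and are encoded by genes with many exons. DT40 cells are widely used for gene targeting.

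The deposited table gives, for each event and library, the number of reads that support exclusion and inclusion. The inclusion level used here is the inclusion reads as a percent of both, and differences are SRSF10-deficient minus wild type, in percentage points. Over all genes, the events summed to 2022414 reads in the deficient library and 2047679 reads in the wild-type library. The chromatin genes held 22100 of the reads in the deficient and 21214 in the wild-type library. SRSF10 had 0 rows, so the genotype label could not be checked with its target, and expression levels of cell type markers were not analysed here. With 1 library per genotype, nothing below has a replicate check, and each test compares 2 libraries, not 2 genotypes. Intervals are at the 95% level, exact Clopper-Pearson for a level and Newcombe for a difference. For a changed event with a count of 0, the share that 3 counts would make of the reads is given as well. This one-sided limit is lower than the upper end of the two-sided exact interval. Intervals and limits cover counting error only. Since PCR reads are not independent molecules, they may be too narrow even for that.

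Of the 171 events, 166 had 2 numbers per library, and 125 of these, in 60 genes, had at least 20 reads in each library and were tested. Changed means an adjusted p under 0.05 by Fisher's exact test, with p-values adjusted over all 6089 tested events of the table, and a difference of at least 10 points. By this rule 12 events in 10 genes changed, which is 9.6% of the tested events, against 4.70% of all tested events. The sets differ in depth, with medians of 116 reads in the deficient and 102 in the wild-type library, against 98 and 95 over all. Events of no defined type were 19 of the 125, against 1545 of all 6089, where 0.712% of them changed. Mutually exclusive events were 0 of the 125, against 90 of all 6089, where 46.7% of them changed. Whether depth or the mix of event types accounts for the gap was not tested. Inclusion is defined by the table for exons only, and 7 of the 12 were cassette exons, 4 higher and 3 lower in the deficient library. The other 5 were alternative splice sites. For these, for retained introns and for events of no defined type, higher and lower refer to the listed inclusion column. The table does not say which form that is. In that sense 6 of the 12 were higher and 6 lower. Over all genes, 2.48% of tested events were changed and higher, and 2.22% changed and lower. The authors' deposited table gives an adjusted p under 0.05 to 8 of the 125 events (6.4%), against 2.50% of all tested events. Cassette exons of UBN1, KDM6A, EHMT1 and BPTF were included more often in the deficient library, and those of ARID1B and MEAF6 less often. Splice site choice changed in BAP1, DNMT1, SIRT2, HDAC9 and BPTF. The median absolute difference was 2.70 points in the chromatin genes and 2.36 points over all tested events. In 79 of the 125 events (63.2%) the levels of both libraries lay within 5 points, as they did in 69.4% of all tested events. For 45 events in 25 genes (36%, against 40.4% of all tested events) the whole interval of the difference lay within 10 points of 0.

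For most event types the spread between the libraries was wider than counting noise. Over all genes, the median chi-square was 3.97 times its expected value for cassette exons, 3.26 times for retained introns, 2.29 times for alternative 5' sites, 2.18 times for alternative 3' sites and 13.7 times for mutually exclusive rows. For events of no defined type it was 0.162 times, below counting noise, and those events were left uncorrected. With each chi-square of the other types divided by the factor of its type, the events of BAP1 and DNMT1 and the 3' site event of BPTF kept their calls, and the other 9 lost theirs. With 1 library per genotype, the factors hold any genotype effect together with other spread, and these cannot be told apart. The correction left 0.903% of all tested events called, against 3 of the 125 events in chromatin genes (2.4%). It left 0 of the 60 tested cassette exons called, against 0.552% of all tested cassette exons. With so low a share, a count of 0 says nothing about these exons as a group. The 7 changed exons had adjusted p-values of 0.205 or more by the corrected chi-square test.

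**Figure D1:**
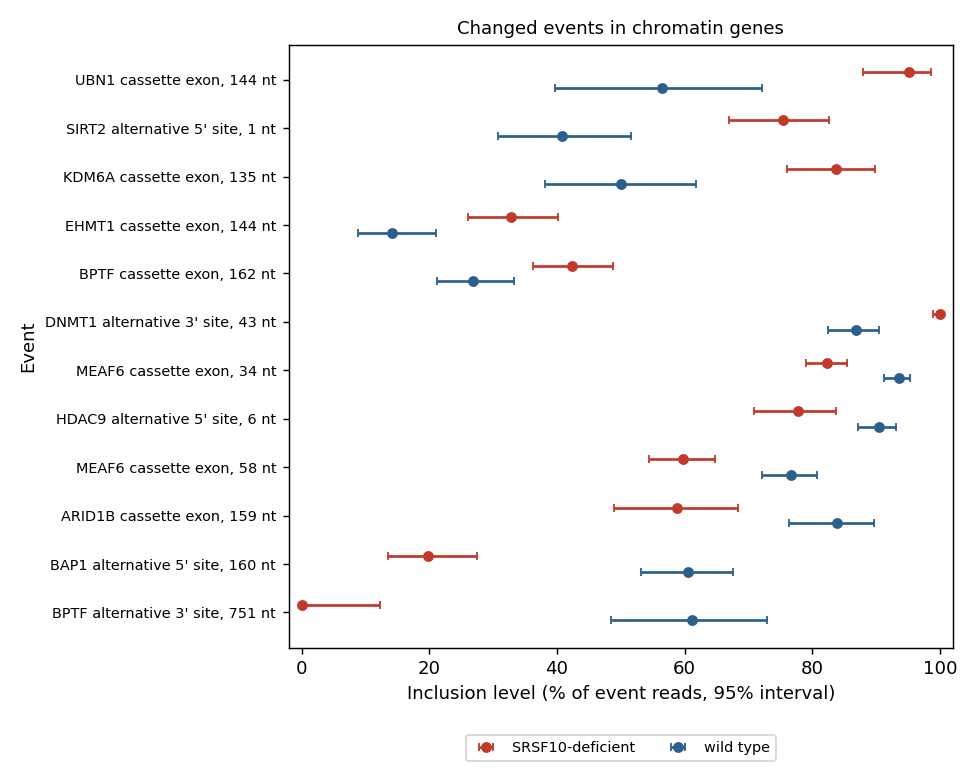
Inclusion level in percent of event reads (x axis) for the 12 changed events of chromatin genes (y axis, with exon length or distance between sites in nt), in the SRSF10-deficient library (red) and the wild-type library (blue), with 95% Clopper-Pearson bars. The levels lie farthest apart in BPTF (0% and 61.2%) and BAP1 (19.9% and 60.5%). The bars of the libraries do not overlap for any of the 12, but the events were chosen from these same counts, so this is no further support.

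**Figure D2:**
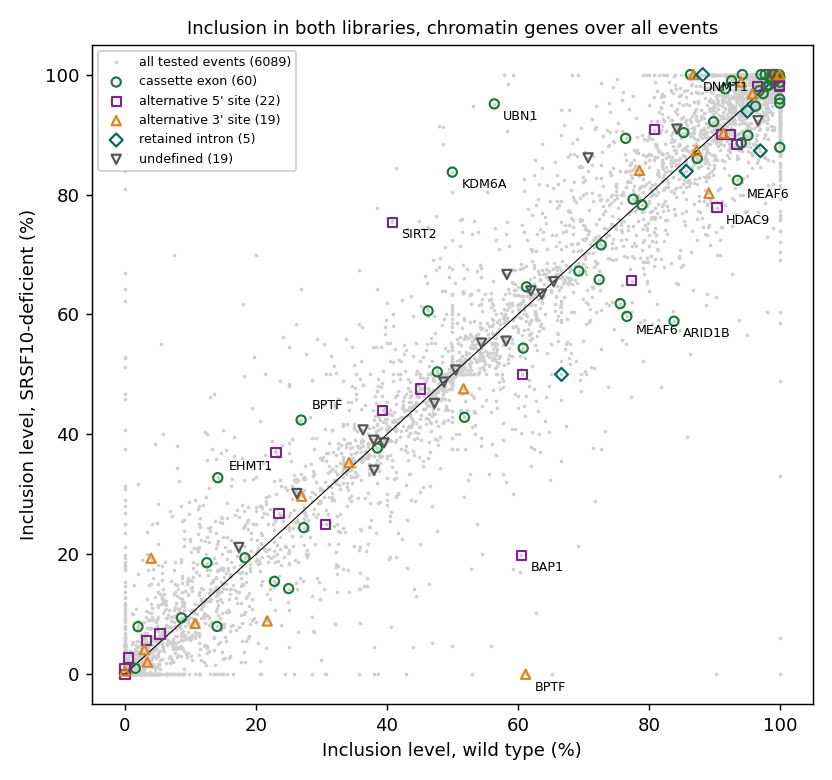
Inclusion level in percent in the SRSF10-deficient library (y axis) against the wild-type library (x axis) for the 125 tested events of chromatin genes, by event type, over all 6089 tested events in grey. Most chromatin events lie along the diagonal of equal levels, and the labelled genes are those with a changed event.

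Among the writers of histone acetylation, MEAF6 was the gene that changed. MEAF6 is a small subunit shared by acetyltransferase complexes of the MYST family, and both of its listed cassette exons were skipped more often in the deficient library. A 58 nt exon (chromosome 23, 3712253 to 3712310 in galGal4, the build of all positions here) was included in 59.7% of 372 reads (54.5 to 64.7) in the deficient library and in 76.6% of 394 reads (72.2 to 80.7) in the wild-type library. The difference was -17.0 points (-23.4 to -10.4), with a Fisher's exact adjusted p of 3.31e-05.

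A 34 nt exon of MEAF6 that lies farther along the listed coordinates (3712932 to 3712965) was included in 82.4% of 556 reads (78.9 to 85.5) in the deficient library, against 93.5% of 603 reads (91.3 to 95.4) in the wild-type library. Its Fisher's exact adjusted p was 3.09e-07. Neither exon length is a multiple of 3. Both calls were lost with the correction for spread (adjusted p of 0.436 and 0.205), and the authors' deposited table lists adjusted p-values of 0.0683 and 0.116.

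The other 6 acetyltransferase genes, BRPF1, BRPF3, ING3, ING4, ING5 and KAT5, had 8 tested events, none of which passed the test. With MEAF6, 2 of 10 events of this class changed, against 4.70% of all tested events. The catalytic subunit KAT5, also known as Tip60, used its rare 5' site in 7 of 257 reads in the deficient library and 1 of 199 reads in the wild-type library. That is a difference of 2.22 points (-0.46 to 5.04). ING5, a PHD finger subunit, had 136 reads in the deficient and 99 in the wild-type library at a 3' and a 5' site event, all on the same side in both. Its 2 events have mirrored counts and so rest on the same reads. ING4 stood at 88.3% of 60 reads in the deficient and 93.5% of 92 reads in the wild-type library.

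Among the writers of histone methylation, EHMT1 changed. EHMT1, also called GLP, methylates lysine 9 of histone H3 together with its partner G9a. A 144 nt exon of EHMT1 (chromosome 17, 2054308 to 2054451) was included in 32.8% of 183 reads (26.04 to 40.1) in the deficient library, against 14.2% of 141 reads (8.88 to 21.1) in the wild-type library. Fisher's exact test gave an adjusted p of 0.00412. Another EHMT1 exon, of 189 nt (2044766 to 2044954) stood at 89.4% of 160 reads in the deficient and 76.5% of 85 reads in the wild-type library, a difference of 12.9 points (3.27 to 23.7) that did not pass the test (Fisher's exact adjusted p of 0.116). Both exon lengths are multiples of 3. The authors' deposited table gives the exons adjusted p-values of 0.0099 and 0.0143. The call on the 144 nt exon was lost with the correction for spread (adjusted p of 1), and with inclusion reads halved, where the difference was 11.97 points and the adjusted p 0.0694. That call was also lost with counts divided by 2 (Fisher's exact adjusted p of 0.244) and at a minimum difference of 20 points.

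MLL3, a large methyltransferase of histone H3 lysine 4, had the most tested events of any gene in the set, 9, and none changed. Their differences ran from -16.7 to 4.64 points. At the lower end, a 35 nt retained intron event had 50% of 46 reads in the deficient and 66.7% of 60 reads in the wild-type library, with a difference interval of -34.1 to 2.09 points. A 165 nt cassette exon was measured more closely, at 79.2% of 226 reads in the deficient and 77.6% of 241 reads in the wild-type library, a difference of 1.61 points (-5.89 to 9.03).

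MLL5, an MLL-family protein with a PHD finger, and MLLT10, a partner of the methyltransferase DOT1L, had 5 tested events, none changed. The widest difference among them was at a 33 nt exon of MLLT10, with 15.5% of 71 reads in the deficient and 22.8% of 127 reads in the wild-type library. MLLT4, which carries an MLL name as a fusion partner of that gene, encodes afadin, a protein of cell junctions. Its 3' site event with sites 21 nt apart stood at 8.89% of 45 reads in the deficient and 21.7% of 46 reads in wild type, and did not pass the test. Across the methyltransferase and MLL names, 1 of 19 tested events changed (5.26%, against 4.70% of all tested events).

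Among the erasers, KDM6A, SIRT2 and HDAC9 changed, the deacetylases and sirtuins in 2 of 11 tested events (18.2%, against 4.70% of all). KDM6A, also called UTX, removes methyl groups from lysine 27 of histone H3. Its 135 nt cassette exon (chromosome 1, 110202915 to 110203049) was kept in 83.7% of 123 reads (76.0 to 89.8) in the deficient library, against 50% of 74 reads (38.1 to 61.9) in the wild-type library. This was a difference of 33.7 points (20.3 to 46.1), with a Fisher's exact adjusted p of 3.95e-05. The authors' deposited table lists 0.000871, and the correction for spread gave an adjusted p of 0.436. Of 12 tested events in 10 demethylase and JmjC genes, that of KDM6A was the 1 changed (8.33%, against 4.70% of all tested events).

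None of the other demethylase events passed the test. KDM4B had a 33 nt exon at 86.0% of 143 reads in the deficient and 87.4% of 127 reads in the wild-type library. KDM2B, which binds unmethylated CpG DNA, had an 87 nt exon at 67.2% of 116 reads in the deficient and 69.3% of 88 reads in the wild-type library. KDM1A, the demethylase LSD1, had 90% of 60 reads in the deficient and 91.1% of 123 reads in the wild-type library at its 5' sites. The widest of the unchanged demethylase differences was in KDM4C, a lysine 9 demethylase, at 14.3% in the deficient and 25% in the wild-type library with 28 reads in each, an interval of -31.0 to 10.5 points.

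SIRT2, an NAD-dependent deacetylase that acts largely in the cytoplasm, was listed with 5' sites 1 nt apart on an unplaced scaffold (1703 to 1704). The reads counted as inclusion were 75.4% of 126 (66.9 to 82.6) in the deficient library and 40.9% of 93 (30.8 to 51.5) in the wild-type library. By Fisher's exact test the adjusted p was 2.07e-05, and 0.0569 with the correction for spread. The authors' deposited table gives this event an adjusted p of 1.

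HDAC9 belongs to the class IIa deacetylases, which act as co-repressors of MEF2 transcription factors. At 5' sites 6 nt apart (chromosome 2, 29439942 to 29439948) it had 77.8% of 171 reads (70.8 to 83.8) in the deficient library, against 90.4% of 418 reads (87.2 to 93.1) in the wild-type library. The Fisher's exact adjusted p was 0.00259, and 0.32 with the correction for spread, and the authors' deposited table lists 1. All 3 HDAC9 events had fewer reads in the deficient library, with 171, 85 and 63 reads against 418, 149 and 101 in the wild-type library. Its 3' sites 9 nt apart stood at 35.3% in the deficient and 34.2% in the wild-type library. A 677 nt retained intron event of HDAC9 stood at 87.3% in the deficient and 97.0% in the wild-type library. The difference was -9.73 points (-20.3 to -1.56). Neither of these events passed the test.

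The class IIa relatives HDAC7 and HDAC4 had exons with wide differences that did not pass. A 117 nt exon of HDAC7 was at 60.6% of 99 reads in the deficient and 46.3% of 108 reads in the wild-type library, a difference of 14.3 points (0.72 to 27.2) with a Fisher's exact adjusted p of 0.375. A 120 nt exon of HDAC4 was included in all 21 reads in the deficient library and in 19 of 22 reads in the wild-type library. These HDAC4 counts are just above the read minimum, and the interval of the difference ran from -4.20 to 33.3 points. SIRT6, a nuclear sirtuin, was near full inclusion in both libraries, at 99% of 200 reads in the deficient and 99.3% of 134 reads in the wild-type library.

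In the class of Polycomb group and BAP1 complex names, which takes in every CBX gene, 1 of 9 tested events changed (11.1%, against 4.70% of all tested events), in BAP1. BAP1 is the deubiquitinase that takes ubiquitin off histone H2A. At 5' sites 160 nt apart (chromosome 12, 3106991 to 3107151), inclusion reads were 19.9% of 136 (13.5 to 27.6) in the deficient library and 60.5% of 185 (53.1 to 67.6) in the wild-type library. The difference was -40.7 points (-49.6 to -30.3), with a Fisher's exact adjusted p of 2.02e-11, and 0.000303 with the correction for spread. This was the event of the set whose call held under all 11 alternatives tried, the authors' deposited adjusted p of 0.000197 included. A 3' site event of BAP1 at a nearby listed position (3107493 to 3107703) stood at 84.0% of 219 reads in the deficient and 78.6% of 210 reads in wild type, and did not pass the test.

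EZH2, the methyltransferase of Polycomb repressive complex PRC2, had 4 tested events without a change. Its deepest, an event of no defined type, had 65.5% of 689 reads in the deficient and 65.5% of 585 reads in the wild-type library. The interval of the difference was -5.22 to 5.23 points. For that type the median chi-square over all genes was 0.162 times its expected value, so near-equal levels are common in it. A 64 nt exon of EZH2 was at 90.3% of 341 reads in the deficient and 85.3% of 293 reads in the wild-type library. EED, the PRC2 subunit that binds trimethylated lysine 27, had a 93 nt exon at 89.8% of 256 reads in the deficient and 95.1% of 268 reads in the wild-type library. Its difference of -5.31 points (-10.05 to -0.78) did not pass (Fisher's exact adjusted p of 0.268). EZH1 and the chromodomain protein CBX1, placed in this class by its name only, were at 98% or more in both libraries.

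In DNA methylation, 1 of 9 tested events changed (11.1%, against 4.70% of all), in DNMT1. DNMT1 copies methylation onto the new strand after replication. At 3' sites 43 nt apart, on an unplaced scaffold (6859 to 6902), all 326 reads in the deficient library were counted as inclusion (98.9 to 100, or a limit of 0.92% for exclusion by the rule of 3 counts), against 86.9% of 289 reads (82.4 to 90.5) in the wild-type library. The exclusion form thus had 0 reads in the deficient library, against 38 reads in wild type. Fisher's exact test gave an adjusted p of 1.2e-11, and 0.000832 with the correction for spread, while the authors' deposited table lists 0.0847. A second 3' site event of DNMT1, with sites 108 nt apart, was at 29.7% of 256 reads in the deficient and 27.0% of 252 reads in the wild-type library.

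TET1, the enzyme that oxidises methylated cytosine, and MBD3, a subunit of the NuRD deacetylase complex, did not pass. A 51 nt exon of TET1 was at 88.6% of 79 reads in the deficient and 94.1% of 68 reads in the wild-type library. The 148 nt exon of MBD3 was mostly skipped in both libraries, at 7.98% of 188 reads in the deficient and 14.1% of 192 reads in the wild-type library, a difference of -6.08 points (-12.5 to 0.28).

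**Figure D3:**
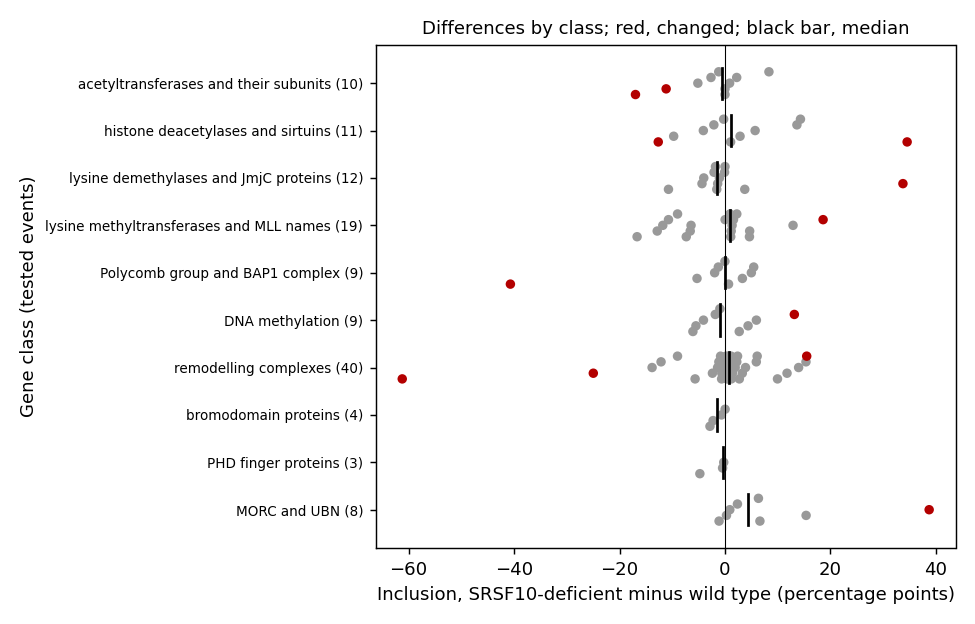
Difference in inclusion, SRSF10-deficient minus wild type, in percentage points (x axis) of each tested event, by gene class (y axis, with the number of tested events). Red points are changed events, grey points the others and black bars the class medians, which lie between -1.47 and 4.35 points while single changed events reach -61.2 and 38.7 points.

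The largest class was that of remodelling names, which follows gene names and so also takes in ARID4A of the SIN3 deacetylase complex. It had 40 tested events in 16 genes named SMARC, ARID, CHD, BPTF, BRD7 or BRD9. Of these, 3 events changed, in BPTF and ARID1B, and 27 had levels within 5 points. These shares are 7.5% and 67.5%, against 4.70% and 69.4% of all tested events. BPTF is the largest subunit of the NURF remodeller and reads methylated lysine 4 of histone H3. A 162 nt exon of BPTF (chromosome 18, 6987883 to 6988044) was included in 42.4% of 250 reads (36.2 to 48.8) in the deficient library, against 26.9% of 223 reads (21.2 to 33.2) in the wild-type library. The Fisher's exact adjusted p of 0.0114 was the weakest among the changed events. The call was lost with the correction for spread (adjusted p of 1) and with inclusion reads halved (adjusted p of 0.102). It was also lost with counts divided by 2 (Fisher's exact adjusted p of 0.313), at a threshold of 0.01 and at a minimum difference of 20 points. The authors' deposited table gives an adjusted p of 0.0308.

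At 3' sites of BPTF 751 nt apart (6971991 to 6972742), inclusion had 0 of 28 reads in the deficient library (0 to 12.3, or a limit of 10.7% by the rule of 3 counts), against 61.2% of 67 reads (48.5 to 72.9) in wild type. The exclusion reads were nearly equal, 28 in the deficient and 26 in the wild-type library, so the difference lies in the 41 inclusion reads of the wild-type library. Its adjusted p by Fisher's exact test was 1.96e-07, and 0.0216 with the correction for spread, and the authors' deposited table lists 0.248. The other 3 tested BPTF events, at 5' sites and a retained intron, did not pass the test. A 5' site event with sites 516 nt apart stood at 90.8% in the deficient and 80.8% in the wild-type library. Sites 15 nt apart stood at 47.6% in the deficient and 45.2% in the wild-type library, and a 144 nt retained intron event at 100% in the deficient and 88.2% in the wild-type library.

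ARID1B, a DNA-binding subunit of the BAF remodeller, had 3 tested cassette exons, and the 159 nt one (chromosome 3, 50721969 to 50722127) changed. It was included in 58.9% of 107 reads (48.95 to 68.3) in the deficient library, against 83.8% of 130 reads (76.4 to 89.7) in the wild-type library. The Fisher's exact adjusted p was 0.000797, the authors' deposited value 0.00603, and the correction for spread gave 0.806. The other exons of ARID1B did not pass the test. Its 42 nt exon was at 50.4% of 117 reads in the deficient and 47.7% of 109 reads in the wild-type library, and its 117 nt exon at 64.6% of 291 reads in the deficient and 61.3% of 212 reads in the wild-type library. The intervals of these differences were -10.2 to 15.5 and -5.18 to 11.8 points.

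The BAF catalytic subunit SMARCA2 is an ATPase also called BRM. It had a 144 nt exon at 37.7% of 167 reads in the deficient and 38.6% of 153 reads in the wild-type library. Its 261 nt event of no defined type stood at 30.1% of 418 reads in the deficient and 26.3% of 339 reads in the wild-type library. Neither SMARCA2 event passed the test. SMARCB1, a core BAF subunit, was the deepest cassette exon of the set, with 1140 of 1140 inclusion reads in the deficient and 1273 of 1274 in the wild-type library. CHD4, the ATPase of NuRD, used a rare 3' site in 4.12% of 1044 reads in the deficient and 2.97% of 808 reads in the wild-type library, a difference of 1.15 points (-0.61 to 2.84). CHD4 also has a 3' and a 5' site event with mirrored counts, which rest on the same reads. A 594 nt event of CHD2, of no defined type, stood at 39.0% of 469 reads in the deficient and 38.0% of 429 in the wild-type library. A 2029 nt event of CHD9, also of no defined type, stood at 50.7% of 337 reads in the deficient and 50.5% of 380 in the wild-type library. Neither passed the test.

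BRD9, a bromodomain subunit of a BAF variant, had 5 tested events and 2 of the widest differences that did not pass. Its 3' sites 32 nt apart stood at 19.4% of 62 reads in the deficient and 4% of 50 reads in the wild-type library, a difference of 15.4 points (3.02 to 27.2). Its 72 nt exon stood at 87.9% of 33 reads in the deficient library and at 100% of 49 reads in the wild-type library. CHD1, a remodeller that binds methylated lysine 4, had a 264 nt exon at 61.8% of 55 reads in the deficient and 75.6% of 78 reads in the wild-type library. That exon did not pass Fisher's exact test (adjusted p of 0.627), but the authors' deposited table lists 0.0383. ARID4A, a subunit of the SIN3 deacetylase complex, had 5' sites 69 nt apart at 37.0% of 27 reads in the deficient and 23.1% of 26 reads in the wild-type library.

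UBN1 had the widest increase among the changed cassette exons of the chromatin genes. It is a subunit of the HIRA complex, which deposits histone H3.3 outside of replication. The 144 nt exon (chromosome 14, 13240523 to 13240666) was included in 95.1% of 82 reads (88.0 to 98.7) in the deficient library and in 56.4% of 39 reads (39.6 to 72.2) in the wild-type library. The Fisher's exact adjusted p was 3.21e-05, the authors' deposited value 0.00334, and the correction for spread gave 0.371.

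Events of UBN1 on both sides of this exon did not pass the test. A 51 nt event of no defined type (13243584 to 13243634) stood at 86.1% of 108 reads in the deficient and 70.7% of 82 reads in the wild-type library, a difference of 15.4 points (3.68 to 27.2). A 129 nt event of no defined type (13239437 to 13239565) stood at 90.9% of 99 reads in the deficient and 84.3% of 70 reads in the wild-type library. Both positions are listed a second time as mutually exclusive, with too few reads to test. At the 51 nt position, that second row gives 9 of 9 inclusion reads (66.4 to 100%) in the deficient and 0 of 10 (0 to 30.8%) in the wild-type library. At the 129 nt position it gives 5 of 5 (47.8 to 100%) in the deficient and 2 of 12 (2.09 to 48.4%) in the wild-type library. Farther out, a 96 nt exon was at 99.0% in the deficient and 92.6% in the wild-type library, and a 90 nt exon at 71.6% in the deficient and 72.7% in the wild-type library.

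MORC2, an ATPase that works with the HUSH silencing complex, had no event that passed the test. Its 192 nt exon had 322 of 322 inclusion reads in the deficient and 354 of 355 in the wild-type library.

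**Figure D4:**
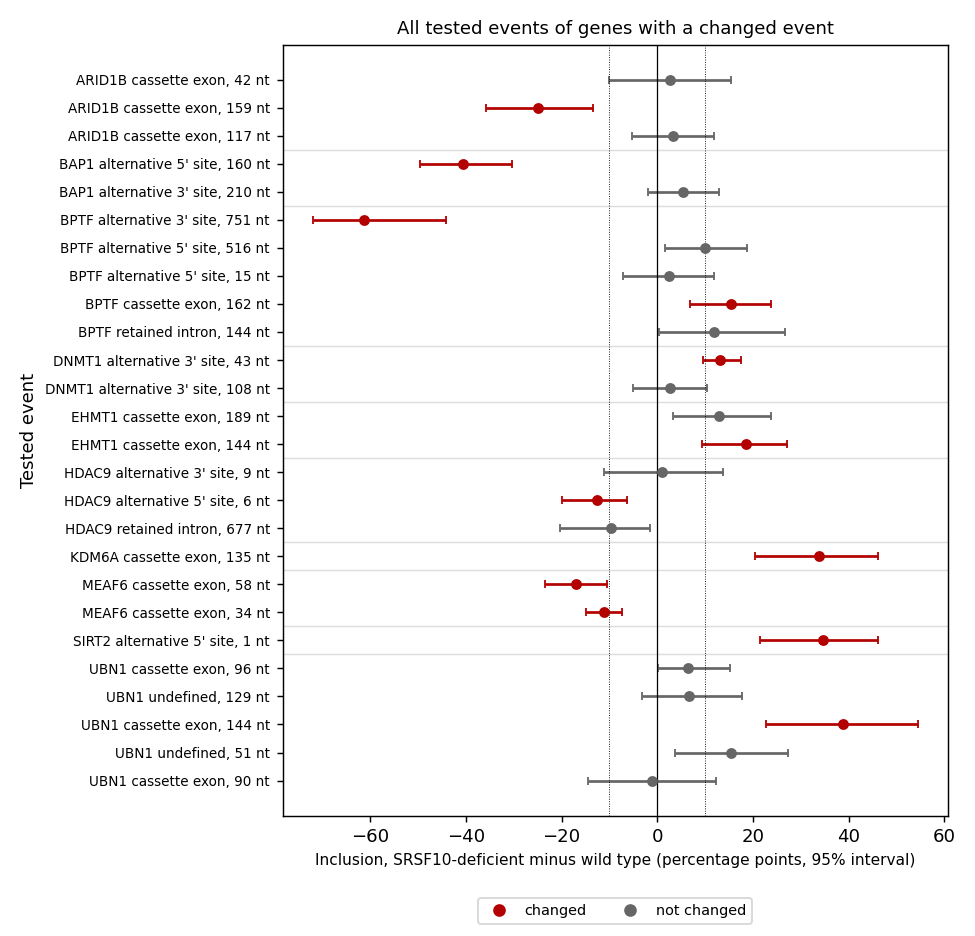
Difference in inclusion, SRSF10-deficient minus wild type, in percentage points with its 95% Newcombe interval (x axis), for every tested event of the 10 genes with a changed event (y axis), in order of listed position. In ARID1B, BAP1 and DNMT1 a single event changed (red), while others of the same gene (grey) have intervals that include 0. In EHMT1, BPTF, HDAC9 and UBN1, some of the grey events have intervals that exclude 0. Both MEAF6 exons lie below 0.

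The remaining bromodomain and PHD finger names, grouped by name and not by complex, had few tested events. None of the 7 in BRD1, BRD2, BRD8, PHF6 and PHF11 passed Fisher's exact test, 0 of them had an unadjusted p under 0.05, and 0 were called with the correction for spread. With 4.70% of all tested events called, a count of 0 among 7 says nothing about these genes as a group. BRD2, a BET protein that binds acetylated histones, had the most reads among them. Its 97 nt exon was at 24.5% of 957 reads in the deficient and 27.3% of 1011 reads in the wild-type library. That is a difference of -2.85 points (-6.70 to 1.03). Its 3' sites 12 nt apart stood at 8.47% of 1051 reads in the deficient and 10.7% of 979 reads in the wild-type library. BRD8, a bromodomain subunit of the NuA4 acetyltransferase complex, had a 45 nt exon at 78.3% of 373 reads in the deficient and 78.9% of 323 reads in the wild-type library. PHF6, a PHD-like zinc finger protein of the nucleolus, stood at 63.4% of 306 reads in the deficient and 63.6% of 363 reads in the wild-type library, at an event of no defined type.

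By event type, 7 of 60 cassette exons changed (11.7%, 4 higher and 3 lower), against 6.07% of all tested cassette exons, of which 3.17% were higher and 2.90% lower. Alternative 5' sites changed in 3 of 22 events, against 4.21% of all, and alternative 3' sites in 2 of 19, against 4.58%. None of 5 retained introns changed by Fisher's exact test (2 at an unadjusted p under 0.05, 0 with the correction for spread), against 4.53% of all. None of 19 events of no defined type changed by Fisher's exact test (1 at an unadjusted p under 0.05, 0 with the correction), against 0.712% of all. No mutually exclusive event of the chromatin genes had enough reads to test, while 46.7% of those tested over all genes changed. The median level of the 60 cassette exons was 89.0% in the deficient and 86.9% in the wild-type library, and 24 of them were included at 90% or more in both libraries.

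The rule did not use exon length. The 60 tested cassette exons had a median length of 112.5 nt, against 102 nt over all tested cassette exons, and 41 of the 60 (68.3%) had a length divisible by 3, against 57.3% of all. Among the 7 changed exons, 5 had such a length, the exceptions being both exons of MEAF6. Over all genes, 69.7% of changed cassette exons had a length divisible by 3. The changed exons of UBN1 and EHMT1 were both 144 nt long, and those of KDM6A, ARID1B and BPTF were 135, 159 and 162 nt.

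Reads at an event also show how deeply a gene was read in each library. The deepest tested event of each gene was taken, and its reads were scaled to all event reads of the library. The ratio of deficient to wild type had a median of 1.13 over the 60 chromatin genes, with quartiles of 0.915 and 1.26, against a median of 1.02 and quartiles of 0.813 and 1.29 over 3461 genes. In 3 genes (5%) the ratio was above 1.5, and in 5 genes (8.33%) the wild-type library had more than 1.5 times the reads of the deficient library. Over all genes these shares were 13.5% and 11.8%. These are reads at one event and not expression levels, and in bulk RNA fewer cells with a transcript and less RNA per cell cannot be told apart.

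At the low end, HDAC9 had 171 reads in the deficient and 418 in the wild-type library, a ratio of 0.414 (0.345 to 0.496). KDM1A had 60 reads in the deficient and 123 in the wild-type library, a ratio of 0.494 (0.357 to 0.678). JMJD4, an oxygenase of the JmjC family, had 38 reads in the deficient and 81 in the wild-type library. BRPF3, a scaffold of acetyltransferase complexes, had 21 reads in the deficient and 60 in the wild-type library, a ratio of 0.354 (0.205 to 0.591). At the high end stood KDM6A, with 123 reads in the deficient and 74 in the wild-type library and a ratio of 1.68 (1.25 to 2.28). These are the reads of its changed cassette exon, its only tested event. Inclusion had 103 reads in the deficient and 37 in the wild-type library, and exclusion had 20 and 37. This ratio and the change in inclusion rest on the same reads, so the ratio is no separate evidence. If more junctions support inclusion than exclusion, a change in inclusion alone would move it. How events were counted is not given, so this was not tested. Among the genes with a changed event, the ratios of HDAC9 and KDM6A lay at opposite ends of this range, each taken at the changed event itself.

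**Figure D5:**
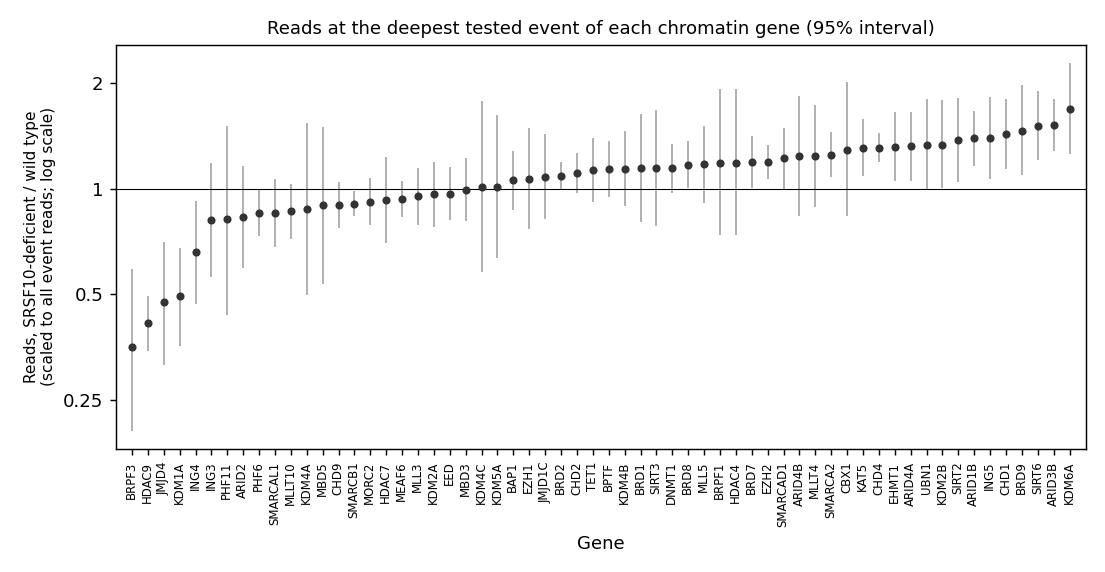
Ratio of reads, SRSF10-deficient over wild type, at the deepest tested event of each of the 60 chromatin genes with a tested event (x axis), scaled to all event reads and drawn on a log scale (y axis) with 95% exact intervals. HDAC9 (0.414) and KDM1A (0.494) lie well below 1, KDM6A (1.68, at its changed cassette exon) is the highest, and most genes lie between 0.8 and 1.5.

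The other 46 events could not be tested. In 41 events at least 1 library had under 20 reads, and 5 rows had 3 numbers per library in an order that the header does not explain. Those 5 rows were in ARID3B, CBX2, CHD4, MLL5 and SETD8, a methyltransferase of histone H4. The CHD4 row lists 727, 729 and 727 in the deficient library and 898 for all 3 numbers in the wild-type library. No tested event was left for 17 genes, among them ARID1A, SIRT4, CBX2, CBX3, CBX8, SETD4 and SMARCD3. Also just above the read minimum were 2 further events of HDAC4, with 21 reads in the deficient library and 35 and 29 in the wild-type library, and the BRPF3 event given above. Just below it, JMJD4 had 19 reads in the deficient and 37 in the wild-type library, PHF11 had 18 in the deficient and 31 in the wild-type library, and BRPF3 had 29 in the deficient and 17 in the wild-type library.

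A list of 243 other chromatin genes that the name rule does not match, such as Polycomb, SIN3, INO80 and histone chaperone genes, was read beside these. It had 195 tested events in 96 genes, of which 5 changed, 3 higher and 2 lower (2.56%, against 4.70% of all tested events). Its median absolute difference was 1.84 points. L3MBTL2, a Polycomb-related repressor, had a 66 nt exon at 55.0% of 218 reads in the deficient and 30.4% of 263 reads in the wild-type library. RIF1, which controls replication timing, had a 78 nt exon at 61.8% of 199 reads in the deficient and 81.2% of 213 reads in the wild-type library.

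The other changed genes of that list were ATAD2B, RBBP5 and BOD1L. ATAD2B, a bromodomain ATPase, had a 62 nt exon at 38.1% of 84 reads in the deficient and 8% of 50 reads in the wild-type library. RBBP5, a core subunit of the MLL complexes, stood at 42.2% of 90 reads in the deficient and 20.7% of 92 reads in the wild-type library at 5' sites 194 nt apart. BOD1L, which protects replication forks, had a 591 nt exon at 85.5% of 152 reads in the deficient and 98.9% of 182 reads in the wild-type library. The Fisher's exact adjusted p-values of the 5 genes ran from 4.42e-06 for L3MBTL2 to 0.0409 for RBBP5. None of the 5 kept its call with the correction for spread (adjusted p of 0.31 or more). The authors' deposited table lists adjusted p-values of 0.000592 for RBBP5, 0.00565 for L3MBTL2, 0.0176 for RIF1, 0.0184 for ATAD2B and 0.236 for BOD1L.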

How the data were processed

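Per the labels' protocols, poly(A) RNA of 1 SRSF10-deficient and 1 wild-type library was sequenced in paired ends. The submitters' processing notes name TopHat2 2.0.6, Cufflinks and galGal4. How events were counted, and how the authors' deposited adjusted p-value was computed, is not given in the sources. Per the file headers, the deposited values are counts of reads for exclusion and for inclusion of each event, without normalization. Of 10652 rows, 276 had 3 or more numbers and 57 repeated another row, which left 10319 events. Exon length is end minus start plus 1, and the distance between sites is end minus start.

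Events with at least 20 reads in each library were tested by a two-sided exact test (Fisher), and p-values were adjusted over all 6089 by the Benjamini-Hochberg method. Halved cassette inclusion reads stand for the case that more junctions support inclusion than exclusion, which the sources do not state. The correction for spread divides each chi-square by the median of its event type over the expected median, from events with expected counts of at least 5, held at 1 or more. Fisher's exact test was also run on simulated reads with counting noise only. That simulation lacks the wider spread seen between these libraries, so it does not check the calls given here. The genes, lists, classes and alternatives were chosen with earlier results of these data known. Named events were all changed ones, all events of their genes, the 10 widest unchanged, the 10 deepest, 3 on each side of the read minimum, rows with 3 numbers per library, and changed genes of the list of other chromatin genes; further events named for their class were chosen after their values were seen. Of the 77 gene names, 71 are symbols or synonyms of the GRCg7b gene table. Software was SciPy 1.17.1, NumPy 2.4.6, pandas 2.3.3 and, for figures, matplotlib 3.10.9, under Python 3.11.15.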

Additional observations from a re-analysis of the deposited data

How the results depend on the processing

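Of the 11 alternatives, a minimum of 10 or 50 reads, a minimum difference of 0 points, an adjusted p of 0.01, 1 row per position and the omission of undefined events left between 10 and 12 changed events in the chromatin genes and 6 or 7 changed cassette exons, against 12 and 7. In that order, the shares of tested chromatin events that were called were 8.28%, 10.3%, 9.6%, 8.8%, 9.6% and 11.3%. Over all tested events they were 4.37%, 5.29%, 5.8%, 3.53%, 4.68% and 6.43%. Inclusion reads halved gave 10 events and 5 exons, and the authors' adjusted p 8 events and 7 exons. These events were 8.4% and 6.4% of the tested chromatin events, against 4.03% and 2.33% of all tested events. A minimum difference of 20 points left 6 events (4.8%) and 3 exons. Over all genes it left 156 events (2.56%), and 3 in the list of other chromatin genes. Counts divided by 2, where fewer reads enter each test, left 6 events (5.94%) and 3 exons. Over all genes they left 91 events (1.97%), and 1 in the list. The correction for spread left 3 events (2.4%) and 0 exons, with 55 events over all genes (0.903%) and 0 in the list. The authors' adjusted p left 142 over all genes. The 12 changed events and the 10 widest unchanged ones kept the sign of their differences wherever they were tested. That is no further support, since most alternatives leave the difference as it is. The others scale the counts of both libraries alike. Of the 12 changed events, 6 kept their calls with 20 points, 6 of the 10 still tested with counts divided by 2, 10 with inclusion reads halved, 6 with the authors' adjusted p and 3 with the correction. The events of UBN1 and the 3' site of BPTF could not be tested at 50 reads or with halved counts. The calls lost with counts divided by 2 were those of the ARID1B exon, the 144 nt exon of EHMT1, the 162 nt exon of BPTF and the 5' site event of HDAC9. No paired analysis was possible because each genotype has 1 library. For the same reason no library could be left out. Of the 125 tested events, 26 (20.8%, against 15.1% of all tested events) differed by 10 points or more, and 12 of these passed. Over all genes 917 events differed by that much, and 286 passed. Whether read depth accounts for those that did not pass was not tested.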

Other observations

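The authors' deposited adjusted p and Fisher's exact test on these counts picked overlapping but unequal sets of chromatin events. The authors' deposited table gives an adjusted p under 0.05 to 8 of the tested events, of which 7 are cassette exons and 1 is the 5' site of BAP1. Of these 8, the 144 nt exon of EHMT1, the exons of ARID1B, KDM6A and UBN1, the 162 nt exon of BPTF and the BAP1 event were also changed by Fisher's exact test. The 189 nt exon of EHMT1 and the 264 nt exon of CHD1 were not. The 6 events changed only by Fisher's exact test were both MEAF6 exons and the site events of DNMT1, SIRT2, HDAC9 and BPTF, for which the authors' deposited table lists between 0.0683 and 1.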
